A study of Homo sapiens with 65 samples.

Results

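PRND and CARTPT are 2 of the 58302 genes in the count table of differentiating human embryonic stem cells. They were matched by symbol and selected on their CPM values of day 7, which differed widely between SOX17-positive and SOX17-negative cells of both genotypes. The values of that day 7 difference are therefore given as a description without a test. Total RNA of the H9 line was sequenced from 65 TruSeq libraries, and levels are CPM, the counts of a gene scaled to the total gene counts of its library. SD is the spread between libraries of a group. No label says whether libraries of a group came from separate cultures, so p-values measure the spread between libraries, which may be technical.

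KO cells were a derivative of the reporter line, SOX17 mCHERRY/w RUNX1C GFP/w RUNX1 -/-, in which the RUNX1 DNA-binding domain had been deleted by CRISPR. WT cells were the parental reporter line, SOX17 mCHERRY/w RUNX1C GFP/w. Each genotype was thus 1 line, and all cells carried the reporter at 1 SOX17 allele and at 1 RUNX1 allele. In the mesoderm protocol, BMP4, ACTIVIN A, VEGF, SCF and FGF2 were given first, SB431542 and CHIR 99021 were added from day 2 to day 4, and VEGF, SCF, FGF2 and IGF2 followed. Unsorted cells of day 0, 2 and 4 gave 4 libraries per day and genotype. At day 7 the CD34+CD43- cells, which the submitters call endothelial, were sorted into SOX17+ cells (4 KO and 4 WT libraries) and SOX17- cells (3 KO and 4 WT libraries). At day 12 the CD34+ cells gave WT SOX17+CD43+ (2 libraries) and WT SOX17-CD43+ (3 libraries), KO and WT SOX17+CD43- (4 libraries each) and KO SOX17-CD43- (1 library). The endoderm protocol, with Act A, CHIR, PI-103 and DMH-1, gave 3 unsorted WT libraries at each of day 2, 4 and 7. The 3 WT libraries of its day 0 are titled undifferentiated, and are counted below with the endoderm libraries.

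PRND encodes doppel, a glycoprotein held at the cell surface by a glycolipid anchor and a relative of the prion protein. It is best known from the testis, where it is needed for male fertility in mice, and in mice it has also been found in endothelial cells. CARTPT encodes the precursor of the CART peptides, which are cut out by prohormone convertases and act in the hypothalamus on food intake. SOX17 is a transcription factor of definitive endoderm and of arterial endothelium, including the endothelium from which blood cells emerge, and RUNX1 is the factor needed for that emergence.

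The 65 libraries held 10366048 to 19081031 gene counts, and the 29 sorted ones 12192995 to 18867169. SOX17 averaged 65.1 to 194.7 CPM in the SOX17+ groups and 0.0822 to 60.6 CPM in the SOX17- groups. SPN, which encodes CD43, averaged 271.8 and 435.2 CPM in the 2 CD43+ groups and 0.347 to 3.60 CPM in the CD43- groups. CDH5, the cadherin of endothelial junctions, averaged 991 to 2092 CPM in every sorted group except WT SOX17-CD43+, at 17.6 CPM. RUNX1 counts, taken over the whole gene, averaged 36.4 CPM in KO and 108 CPM in WT SOX17+ cells at day 7, and 14.8 CPM in KO and 60.9 CPM in WT SOX17+CD43- cells at day 12.

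In the basic annotation of GENCODE 29 (GRCh38) PRND (ENSG00000171864) lies on the plus strand at chr20:4721910-4728460, with 1 transcript and 3980 exon bases. CARTPT (ENSG00000164326) lies on the plus strand at chr5:71719163-71721048, with 2 transcripts and 1216 exon bases. No other annotated gene overlaps either of them. PRNP, the prion protein gene, ends 20319 bases before PRND. PRNT lies on the minus strand, and 2821 bases separate the end of PRND from its nearer, downstream end. The 250 bases before each RefSeq start (GRCh38.p14, plus strand, chr20:4721659-4721908 and chr5:71719025-71719274) are shown because both genes came on in the same sorted cells. Capitals mark matches to the motifs named after the sequences, which were searched on both strands.
PRND: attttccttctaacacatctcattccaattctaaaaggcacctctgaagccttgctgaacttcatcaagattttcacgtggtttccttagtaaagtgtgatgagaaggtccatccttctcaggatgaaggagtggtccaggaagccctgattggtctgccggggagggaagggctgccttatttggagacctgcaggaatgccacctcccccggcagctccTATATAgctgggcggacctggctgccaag
CARTPT: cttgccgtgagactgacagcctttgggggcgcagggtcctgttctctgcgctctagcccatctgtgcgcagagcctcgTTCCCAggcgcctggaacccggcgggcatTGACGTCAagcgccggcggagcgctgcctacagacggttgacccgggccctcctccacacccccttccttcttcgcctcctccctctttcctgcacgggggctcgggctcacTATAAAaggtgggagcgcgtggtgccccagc

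The CARTPT window was rich in G and C, at 66.8% with 20 CG pairs, and the PRND window was not, at 51.2% with 4. The medians over 35116 RefSeq windows of this length were 58% and 11 CG pairs. Position -1 is the last base before the start. In PRND the capitals are TATATA at position -29, letters added to the search after the sequence had been seen and found in 3.73% of all windows. In CARTPT they are the TATA box core TATAAA at position -31, found in 10.7%, and the cAMP response element core TGACGT at position -143. This match overlaps its own reverse complement on the minus strand at position -141, and these letters were found in 7.1% of windows. The remaining capitals in CARTPT are TGGGAA, the RBPJ core, on the minus strand at position -172, found in 20.8%. Neither window held the letters ACAAT of SOX factors (24.6% of windows), TGTGGT of RUNX factors (11%), AGATAA of GATA factors (9.17%), ACAGGAA of ETS factors (5.87%) or CAGCTG of an E-box (14%). Each was searched as 1 fixed string, so other forms of these sites were not covered. The GENCODE gene of CARTPT starts at chr5:71719163, inside its window, so the TATAAA match lies within that annotated gene.

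Both genes were nearly silent in unsorted mesoderm. CARTPT had 1 count in all 24 unsorted mesoderm libraries together, in KO cells of day 4, and 2 counts in the 12 endoderm libraries. PRND had 24 counts in the 8 mesoderm libraries of day 0, none in the 8 of day 2 and 5 in the 8 of day 4. No count in the 8 libraries of day 2 allows a level of up to 0.0283 CPM, by 3 counts over these libraries, and covers counting error alone. SOX17 was already present on that day, at 14.2 to 37.5 CPM in these libraries. In the WT mesoderm libraries of day 4 neither gene had a count, although CDH5 already stood at 101.7 ± 34.3 CPM there (SD, n = 4).

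High levels of SOX17 in endoderm were not accompanied by CARTPT. Endoderm held 404.1 ± 27.3 CPM of SOX17 at day 4 and 207.7 ± 2.31 CPM at day 7 (SD, n = 3 each). WT SOX17+ cells of day 7 held 182.8 ± 32.9 CPM of it (SD, n = 4). CARTPT had 4164 counts in the 4 WT SOX17+ libraries and 1 count in the 3 endoderm libraries of day 7, a ratio of 3358 between the CPM levels with a 95% counting interval of 602 to 132700. PRND was found in every library of the endoderm course, also in the undifferentiated cells of day 0. Its CPM values were 0.17, 0.54 and 0.15 for day 0, then 0.24, 0.18 and 0.06 for day 2, then 1.46, 0.60 and 1.94 for day 4 and 0.21, 0.37 and 0.38 for day 7. Its 3 libraries of day 4 lay above those of every other day of the course. Groups that do not overlap were common among all genes, with 53.4% for day 4 against day 2 and 36.4% for day 7 against day 4. PRND did not pass the filter on low counts among the endoderm libraries, so no test between days is given. In day 7 WT cells, PRND averaged 9.15 CPM in SOX17+ endothelium and 0.319 CPM in endoderm, with 610 and 17 counts.

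**Figure D1:**
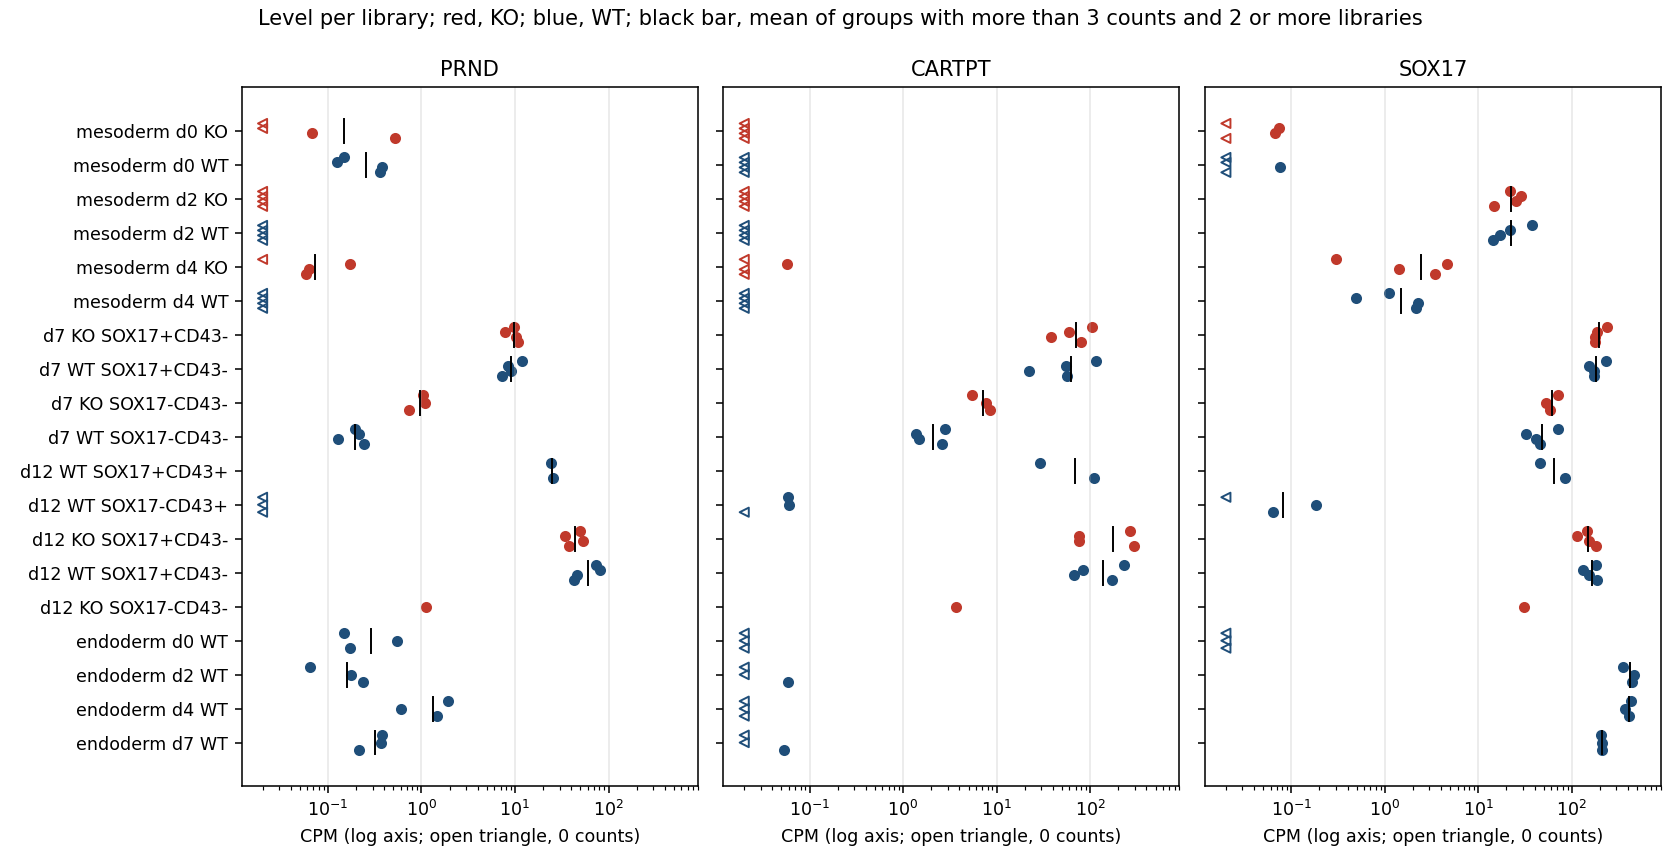
PRND, CARTPT and SOX17 in each library (red KO, blue WT), in CPM on a log axis, with open triangles for libraries at 0 counts and black bars for group means. Values of PRND and CARTPT above 20 CPM were found in SOX17+ groups alone, and CARTPT had at most 0.0588 CPM in any unsorted library.

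In the WT line at day 7, PRND had 7.31, 9.10, 8.46 and 11.7 CPM in SOX17+ cells, against 0.24, 0.13, 0.21 and 0.20 CPM in SOX17- cells. CARTPT had 57.2, 22.4, 55 and 116 CPM in WT SOX17+ cells, against 2.62, 1.47, 1.36 and 2.80 CPM in WT SOX17- cells. All SOX17+ libraries lay above all SOX17- libraries for both genes, and 5.47% of all genes had fractions that did not overlap. The log2 fold change was 5.48 ± 0.33 for PRND and 4.89 ± 0.61 for CARTPT (± standard error), and SOX17 itself differed 3.25- to 4.81-fold within runs of library numbers. In this contrast 0.927% of the 22978 genes tested were called higher, at an adjusted p under 0.05, which chose the members and is not read further. By fold change PRND and CARTPT ranked 2 and 3 of the 213 genes called higher, after C2CD4A.

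In the KO line at day 7 the same gates gave smaller contrasts. PRND had 10.8, 10.3, 7.74 and 9.66 CPM in KO SOX17+ cells, against 0.73, 1.09 and 1.05 CPM in KO SOX17- cells. CARTPT had 78.9, 38.6, 58.8 and 104 CPM in KO SOX17+ cells, against 8.40, 7.62 and 5.48 CPM in KO SOX17- cells. The groups again did not overlap, as for 12.7% of all genes. The log2 fold changes were 3.33 ± 0.28 for PRND and 3.30 ± 0.59 for CARTPT, and 0.348% of genes were called higher. They ranked 5 and 6 among the 80 genes called higher, after ESM1, AC011487.2, NPY5R and ADCYAP1R1. The difference of the SOX17 log2 fold changes, KO minus WT, was -2.15 ± 0.52 for PRND and -1.59 ± 0.81 for CARTPT. It is a description too, since both contrasts chose the genes, and of all 22978 genes 0.0% passed edgeR's test of this difference, with 240 at an unadjusted p under 0.05. Markers of other cell types differed between these fractions. Of the 8 markers of mesenchyme and smooth muscle, 2 were called lower in SOX17+ cells in KO and 2 in WT, against 0.322% and 0.67% of all genes. Of 4 tested endoderm markers, which include SOX17 itself and CXCR4, also listed as arterial, 1 was called higher in KO and 2 in WT. Of all 8 endoderm markers 5 had more than 3 counts over the group in KO SOX17+ cells and 6 in WT SOX17+ cells. The numbers were the same in SOX17- cells, 5 in KO and 6 in WT. FOXA2 was at 0 in SOX17+ cells of both lines and in KO SOX17- cells. Of 16 arterial genes 1 was called higher in KO and 8 in WT, and none lower. Of 10 haematopoietic markers none was called in KO and 2 were lower in WT. All 8 mesenchymal markers were detected in each group, with summed levels of 154 to 355 CPM in KO SOX17+, 605 to 996 CPM in KO SOX17-, 196 to 436 CPM in WT SOX17+ and 680 to 1248 CPM in WT SOX17- cells. Their part in the PRND and CARTPT values was not tested, and in sorted bulk cells a smaller number of expressing cells and less RNA per cell cannot be told apart.

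**Figure D2:**
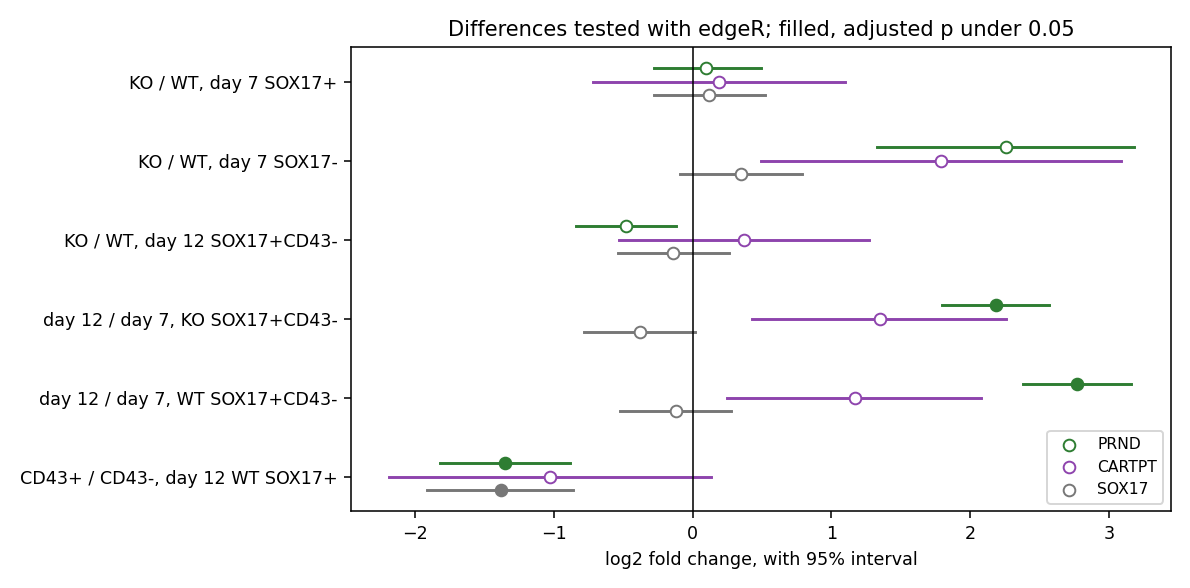
Log2 fold changes of PRND, CARTPT and SOX17 with 95% intervals (x axis) in 6 comparisons of sorted libraries. The choice of the genes used none of these comparisons, but those that include day 7 groups share libraries with it. Filled points passed edgeR's test at an adjusted p under 0.05, which for PRND were both comparisons of day 12 with day 7 and the CD43 contrast.

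Loss of the RUNX1 DNA-binding domain left no detected change in SOX17+ cells of day 7. These libraries took part in choosing the genes, though not by this contrast. PRND averaged 9.64 ± 1.36 CPM in KO and 9.15 ± 1.88 CPM in WT SOX17+ cells (SD, n = 4 each), a log2 fold change of 0.10 ± 0.20 (95% interval -0.28 to 0.49, edgeR adjusted p = 1). CARTPT averaged 70.0 ± 27.9 CPM in KO and 62.5 ± 38.8 CPM in WT SOX17+ cells (SD, n = 4 each), a log2 fold change of 0.19 ± 0.46 (-0.72 to 1.10, edgeR adjusted p = 1). The groups overlapped for both genes, and 0.0566% of all genes were called in either direction. The CARTPT interval is wide enough to hold a doubling, so no more than this can be said of it. KO over WT within runs of consecutive library numbers was above 1 in 2 of 4 runs for PRND and in 3 of 4 for CARTPT.

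In SOX17- cells of day 7 both genes stood higher in KO cells without passing the test. The libraries of this contrast took part in choosing the genes, so its p-values are not independent of that choice. Together with the contrast in SOX17+ cells, it makes up the difference between lines that was only described above. PRND averaged 0.956 ± 0.199 CPM in KO cells (SD, n = 3) and 0.195 ± 0.0492 CPM in WT cells (SD, n = 4), from 46 and 12 counts. Its log2 fold change was 2.26 ± 0.47 (1.33 to 3.18, edgeR adjusted p = 0.133, unadjusted p = 6.97e-05). CARTPT averaged 7.17 ± 1.51 CPM in KO cells (SD, n = 3) and 2.06 ± 0.754 CPM in WT cells (SD, n = 4), from 340 and 128 counts. Its log2 fold change was 1.79 ± 0.66 (0.49 to 3.09, edgeR adjusted p = 0.878). The KO and WT libraries did not overlap for either gene, which held for 4.85% of all genes tested, and 0.0087% of genes were called. Without the filter on low counts PRND passed (adjusted p = 0.00403), as it did in DESeq2 (adjusted p = 0.0177). SOX17 averaged 60.6 ± 9.51 CPM in KO and 47.5 ± 16.5 CPM in WT SOX17- cells (SD, n = 3 and 4), and KO over WT within the 3 shared runs was 1.00 to 1.27 for SOX17, 2.99 to 8.53 for PRND and 1.96 to 5.19 for CARTPT. The part of SOX17+ cells in the SOX17- gate was not tested.

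At day 12 the genotypes again overlapped. PRND had 37.5, 52.8, 34.6 and 49.5 CPM in KO SOX17+CD43- cells, against 42.6, 46.5, 80.2 and 73.4 CPM in WT SOX17+CD43- cells. CARTPT had 291, 76.8, 75.4 and 266 CPM in KO SOX17+CD43- cells, against 169, 66.6, 83.0 and 228 CPM in WT SOX17+CD43- cells. The log2 fold change was -0.48 ± 0.18 (-0.84 to -0.12) for PRND and 0.37 ± 0.46 (-0.53 to 1.27) for CARTPT, neither past the test (edgeR adjusted p = 1 for both, against 0.187% of all genes called). Whether the KO effect depended on the day was tested as a difference of the 2 effects, day 12 minus day 7. It was -0.58 ± 0.27 for PRND and 0.18 ± 0.65 for CARTPT (edgeR adjusted p = 1 for both, with 0.00435% of genes called).

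PRND rose between day 7 and day 12 in both lines, and CARTPT stood higher without passing the main test. These comparisons share the day 7 SOX17+ libraries that took part in choosing the genes. In the WT line the day 12 mean of PRND was 60.7 ± 18.9 CPM and the day 7 mean 9.15 ± 1.88 CPM (SD, n = 4 each), a 6.83-fold difference with a log2 fold change of 2.77 ± 0.20 (edgeR adjusted p = 1.13e-09). In the KO line the day 12 mean was 43.6 ± 8.91 CPM and the day 7 mean 9.64 ± 1.36 CPM (SD, n = 4 each), a 4.56-fold difference with a log2 fold change of 2.19 ± 0.20 (edgeR adjusted p = 2.86e-08). Libraries of the 2 days did not overlap in either line, as for 26.4% of all genes in WT and 18.9% in KO. Of all genes 8.57% were called higher and 9.23% lower at day 12 in WT, and 6.0% higher and 7.29% lower in KO, so changes over these days were common. Of the 11 pan-endothelial markers 3 rose in KO and 5 in WT, with none lower, among them CDH5 in WT, with 2092 ± 147 CPM at day 12 and 1351 ± 101 CPM at day 7 (SD, n = 4 each). Of the 8 mesenchymal markers 2 rose in KO, and 3 rose and 1 fell in WT. Of the 10 haematopoietic markers 5 fell in KO, and 2 rose and 2 fell in WT. Their part in the PRND rise was not tested.

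In the WT line the CARTPT mean of day 12 was 136.8 ± 75.7 CPM and that of day 7 was 62.5 ± 38.8 CPM (SD, n = 4 each), a log2 fold change of 1.17 ± 0.47 (edgeR adjusted p = 0.084). Replicate numbers paired the WT libraries of these days, and with the replicate as a block the adjusted p was 0.000502 at the same log2 fold change of 1.17. In the KO line the CARTPT mean of day 12 was 177.1 ± 117.1 CPM and that of day 7 was 70.0 ± 27.9 CPM (SD, n = 4 each), a log2 fold change of 1.35 ± 0.47 (edgeR adjusted p = 0.0558). Leaving out replicate 4 of the day 7 WT libraries, its highest, gave 1.66 (adjusted p = 0.0234) in WT. In KO, leaving out replicate 2 or 3 of day 12 or replicate 4 of day 7 gave 1.61, 1.62 and 1.60 (adjusted p = 0.0299, 0.0218 and 0.0464). These were the only passes, 1 in WT and 3 in KO, among the 8 libraries of each line left out in turn. In the other fits with a library left out the edgeR adjusted p did not pass, reaching 0.287 in WT and 0.199 in KO. With all libraries, CARTPT passed in both lines without the filter on low counts and with a replicate or run block. In KO neither number paired the libraries. Within runs of library numbers, day 12 over day 7 was above 1 in all 4 runs of both lines, at 1.51 to 2.97 in WT and 1.28 to 3.68 in KO for CARTPT. SOX17 did not share this change, with log2 fold changes of -0.12 ± 0.20 in WT and -0.38 ± 0.20 in KO (edgeR adjusted p = 0.749 and 0.266).

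In SOX17+CD43- groups the spread between libraries was wider for CARTPT than for PRND. The highest library was 2.69 to 5.16 times the lowest for CARTPT in the 4 SOX17+CD43- groups, and 1.40 to 1.88 times for PRND. Libraries of runs 4 and 1, as numbered by consecutive library numbers in the titles, held the 2 highest CARTPT levels in all 4 groups, in the order 4, 1, 3, 2 in KO and WT at day 7 and WT at day 12, and 1, 4, 2, 3 in KO at day 12. PRND had no such common order. In KO SOX17- cells of day 7 the spreads were alike, at 1.53 times for CARTPT and 1.5 times for PRND. What the runs stand for is not stated in the labels, and their part in the CARTPT values was not tested.

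**Figure D3:**
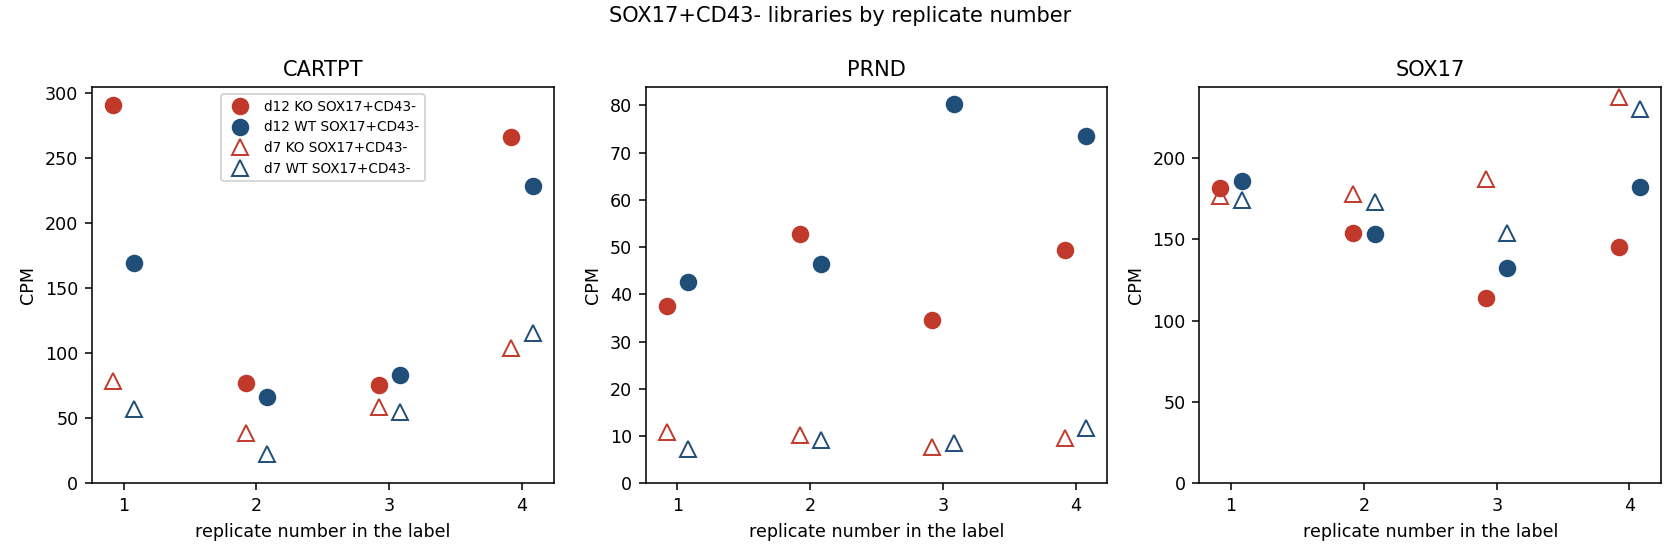
CPM of CARTPT, PRND and SOX17 in the SOX17+CD43- libraries of day 12 (filled circles) and day 7 (open triangles), KO in red and WT in blue, by replicate number, which in these groups equals the number of the run. CARTPT was highest in replicates 1 and 4 in each of the 4 groups, and PRND showed no common order.

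SOX17+ cells carrying CD43, a surface mark of early blood cells, held less PRND than their CD43- counterparts, and a level of CARTPT that overlapped with theirs. In WT cells of day 12 PRND had 25.2 and 24.4 CPM in SOX17+CD43+ cells, against 42.6, 46.5, 80.2 and 73.4 CPM in SOX17+CD43- cells. CARTPT had 109.7 and 29.1 CPM in SOX17+CD43+ cells, against 169, 66.6, 83.0 and 228 CPM in SOX17+CD43- cells. PRND did not overlap between the fractions, as for 47.3% of all genes, and CARTPT did. PRND fell by a log2 fold change of -1.35 ± 0.24 (edgeR adjusted p = 0.000145), where 10.9% of genes were called lower and 15.5% higher. CARTPT had -1.03 ± 0.59 (edgeR adjusted p = 0.21), and passed with the replicate number as a block (adjusted p = 0.0215) or the run (adjusted p = 0.0213), with 2 shared numbers each. Neither number was judged to pair these libraries, with r of 0.01 to 0.17 for the replicate and 0.17 to 0.42 for the run over 2 pairs. Both genes were lower in SOX17+CD43+ cells in each of the 2 shared runs, at 0.305 and 0.591 times for PRND and 0.351 and 0.647 times for CARTPT.

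Endothelial genes fell with PRND in this fraction. Of the 11 pan-endothelial markers 10 fell and none rose, with a median log2 fold change of -1.10 against -0.01 for all genes tested. Their summed level was 8272 and 8314 CPM in SOX17+CD43+ cells and 14220 to 16780 CPM in SOX17+CD43- cells. All 10 haematopoietic markers rose, with a median of 4.83 and sums of 1021 and 1381 CPM in SOX17+CD43+ cells, against 63.9 to 129 CPM in SOX17+CD43- cells, where KLF1 was at 0. SOX17 fell by -1.38 ± 0.27 (edgeR adjusted p = 0.000337), and its relatives SOX18 and SOX7 by -0.92 ± 0.30 and -1.05 ± 0.17 (edgeR adjusted p = 0.0227 and 5.51e-05). The part of a mixture of endothelial and blood cells in the fall of PRND was not tested.

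In SOX17-CD43+ blood cells both genes were at the limit of detection. PRND had no count in the 3 WT SOX17-CD43+ libraries, which allows up to 3 counts over the group, and was at least 986-fold lower than in SOX17+CD43- cells and at least 405-fold lower than in SOX17+CD43+ cells. CARTPT had 0, 1 and 1 counts there and was 3304-fold lower than in SOX17+CD43- cells, with a 95% counting interval of 915 to 27290. Against SOX17+CD43+ cells it was 1785-fold lower (493 to 14750), or 712-fold without replicate 1 of the SOX17+CD43+ libraries and 2680-fold without replicate 2. CDH5, at 17.6 ± 11.8 CPM (SD, n = 3), was still detected in these cells.

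Over all 19 groups, the SOX17+ groups were separated by day for PRND and ran into each other for CARTPT. PRND was highest in WT and KO SOX17+CD43- cells of day 12, which overlapped, followed by WT SOX17+CD43+ cells of day 12 at 24.8 ± 0.520 CPM (SD, n = 2), which overlapped neither. SOX17+ cells of day 7 came next, KO and WT overlapping, and all other groups averaged at most 1.33 CPM. For CARTPT each of the 5 SOX17+ groups overlapped its neighbour in the order, which was KO and WT SOX17+CD43- of day 12, KO SOX17+ of day 7, WT SOX17+CD43+ of day 12 and WT SOX17+ of day 7. A gap followed down to KO SOX17- cells of day 7, the single KO SOX17-CD43- library of day 12 and WT SOX17- cells of day 7, none of which overlapped the next.

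Per length, CARTPT was the more abundant transcript in SOX17+ cells, while in endoderm of day 4 PRND averaged 0.354 RPKM and CARTPT 0. On the deposited RPKM scale it averaged 55.7 in KO and 49.5 in WT SOX17+ cells of day 7, and PRND 2.35 and 2.22. In SOX17+CD43- cells of day 12 CARTPT averaged 143.7 RPKM in KO and 111.0 in WT, and PRND 10.9 and 15.1. The CARTPT levels of day 12 placed it among the top 0.499% of detected genes in KO and 0.728% in WT, and the PRND levels among the top 14.9% and 10.7%. The ratio of CARTPT to PRND in single SOX17+CD43- libraries was 3.39 to 25.4 at day 12 and 8.06 to 35.2 at day 7.

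Other members of the prion family were not called between day 12 and day 7, where PRND rose. In WT SOX17+CD43- cells the PRNP mean was 94.1 ± 13.1 CPM for day 12 and 94.2 ± 5.84 CPM for day 7 (SD, n = 4 each), a log2 fold change of 0.04 ± 0.12 (edgeR adjusted p = 0.861), and it was present at day 0. It fell in SOX17+CD43+ cells by -0.50 ± 0.15 (edgeR adjusted p = 0.0144). In WT SOX17-CD43+ cells both tested members were lower than in SOX17+CD43- cells, PRNP by -1.0 ± 0.13 and SPRN by -0.58 ± 0.19 (edgeR adjusted p = 2.7e-07 and 0.0102). Lower calls were common there, at 33.9% of all genes tested. Both PRNP and SPRN were higher in SOX17+ endothelium than in endoderm of day 7, by 2.51 ± 0.13 and 1.28 ± 0.18 (edgeR adjusted p = 4.47e-09 and 4.9e-05). In that contrast, where protocol and sorting differed too, 36.3% of all genes tested were called higher. SPRN, which encodes the related protein shadoo, was called in none of the comparisons of KO with WT, of day 12 with day 7 or of the CD43 fractions. PRNT had too few counts to be tested. Of the 6 tested neighbours of both genes on their chromosomes, which include PRNP, MAP1B alone was called between days. This microtubule-associated protein gene rose by 0.89 ± 0.18 in WT and 0.83 ± 0.18 in KO (edgeR adjusted p = 0.000834 and 0.00194). Among all genes 17.8% were called between these days in WT and 13.3% in KO.

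Genes that mature the CART peptides were found at uneven levels in the same cells, and some were nearly absent. PCSK1, the other prohormone convertase, had at most 9 counts in any SOX17+ group and none in WT SOX17+CD43+ cells. PCSK1N, its inhibitor, had no count in any SOX17+ group. Of the 7 genes listed for CART processing and its proposed receptor, 5 were tested. Between day 7 and day 12 the same number was called in WT and KO, 3 higher and 1 lower. The share called over all genes was 17.8% in WT and 13.3% in KO. CPE, the carboxypeptidase that trims peptide ends, rose by 1.83 ± 0.39 in WT and 2.01 ± 0.40 in KO (edgeR adjusted p = 0.00133 and 0.000738). PCSK2, a prohormone convertase, rose by 3.51 ± 0.96 in KO (edgeR adjusted p = 0.0129), with a mean of 1.33 CPM at day 12 and 0.121 CPM at day 7. In WT it was called too (edgeR adjusted p = 0.00105), from 118 counts at day 12 and 3 at day 7, a level at the floor for which no fold is given. PAM, the enzyme that amidates peptides, rose by 0.33 ± 0.11 in WT and 0.35 ± 0.11 in KO (edgeR adjusted p = 0.0328 and 0.0315). SCG5, the chaperone of PCSK2, fell by -2.29 ± 0.27 in WT and -2.14 ± 0.26 in KO (edgeR adjusted p = 7.41e-07 and 2.34e-06). GPR160, a proposed CART receptor, averaged 1.01 to 1.85 CPM in the SOX17+ groups and was not called in these comparisons. None of these 5 genes was called between KO and WT, where 0.0087% to 0.187% of all genes were called in the comparisons of sorted cells.

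Of the other neuropeptide genes VIP changed between days. Of 10 listed neuropeptide and granin genes 6 were tested, and VIP alone was called, higher at day 12 by 2.06 ± 0.35 in WT and 1.41 ± 0.34 in KO (edgeR adjusted p = 0.000112 and 0.00522). Between these days 17.8% of all genes were called in WT and 13.3% in KO, so 1 call in such a list is not unusual. VIP, which encodes a vasodilator peptide, reached 7.24 ± 0.821 CPM in WT cells of day 12 (SD, n = 4).

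Genes of venous and lymphatic vessels changed over the same days. Of 8 venous and lymphatic genes 6 rose between day 7 and day 12 in WT and 5 in KO, with medians of 1.40 and 1.24 against -0.01 over all genes. They included LYVE1, a hyaluronan receptor of lymphatic vessels, with 5.50 ± 0.67 in WT and 4.47 ± 0.65 in KO (edgeR adjusted p = 1.6e-06 and 2.29e-05). NR2F2, the transcription factor of venous identity, rose by 1.66 ± 0.27 in WT and 1.75 ± 0.28 in KO (edgeR adjusted p = 8.25e-05 and 5.7e-05). Of 16 arterial genes 5 rose and none fell in WT, and 1 rose and 2 fell in KO. Over all genes 8.57% were called higher and 9.23% lower in WT, and 6.0% and 7.29% in KO. GJA5, the arterial connexin 40, rose by 1.83 ± 0.53 in WT (edgeR adjusted p = 0.0164) and had 1.28 ± 0.53 in KO (adjusted p = 0.117). KDR, the VEGF receptor with which doppel has been found to act in tumour endothelium, was not called between days, with 0.18 ± 0.33 in WT and 0.23 ± 0.33 in KO (edgeR adjusted p = 0.761 and 0.744).

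Several endothelial genes had patterns over the 19 groups most like those of the members, by Pearson's r of group means of log2(CPM + 1) over 23334 genes. These correlations are descriptions, since the same groups, with their shared sorts and libraries, enter every r. Closest to PRND were BTNL9 (r = 0.986), the pseudogene CASP17P (0.981), ESM1, a proteoglycan of activated endothelium (0.979), IL33, a cytokine of endothelial nuclei (0.979), and the pseudogene AC011487.2 (0.963). Closest to CARTPT were RP1 (0.99), AP003501.1 (0.984), AP003501.2 (0.982), GBP7 (0.976) and the pseudogene AC004381.2 (0.970). PRND and CARTPT had an r of 0.952, which ranked CARTPT 10 for PRND and PRND 14 for CARTPT. By Spearman's rank correlation, at 0.738, these ranks were 815 and 4114, and with a pseudocount of 0.1 they were 7 and 163. SOX17 had 0.511 with PRND and 0.519 with CARTPT.

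Some of these neighbours in pattern are uncertain as counts. AP003501.1 and AP003501.2 are antisense to ROBO4, an endothelial receptor, and since counting by strand is not stated their reads cannot be told apart from those of ROBO4. GBP7 overlaps GBP2, RP1 overlaps SEC11B and AC090151.1, ESM1 overlaps AC034238.1, and AC004381.2 overlaps ACSM3 and THUMPD1. GBP7 and AC011487.2 were also low, with highest group means of 1.0 and 1.36 CPM, where a mean of 1 CPM was the least for entering the ranking. RP1, known from photoreceptors, lies 48534 bases from SOX17 with no protein-coding gene between them. Its level averaged 17.7 CPM in KO SOX17+ and 3.84 CPM in KO SOX17- cells of day 7, and 14.1 CPM in WT SOX17+ and 3.00 CPM in WT SOX17- cells. None of these 10 genes was called between KO and WT in SOX17- cells of day 7 or in SOX17+CD43- cells of day 12. Of all genes 0.0087% and 0.187% were called there. In SOX17+CD43+ cells RP1 (-1.07 ± 0.31, edgeR adjusted p = 0.0107), AP003501.2 (-1.21 ± 0.40, adjusted p = 0.0239) and AC004381.2 (-1.01 ± 0.37, adjusted p = 0.0434) fell against SOX17+CD43- cells, where 10.9% of all genes were called lower.

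**Figure D4:**
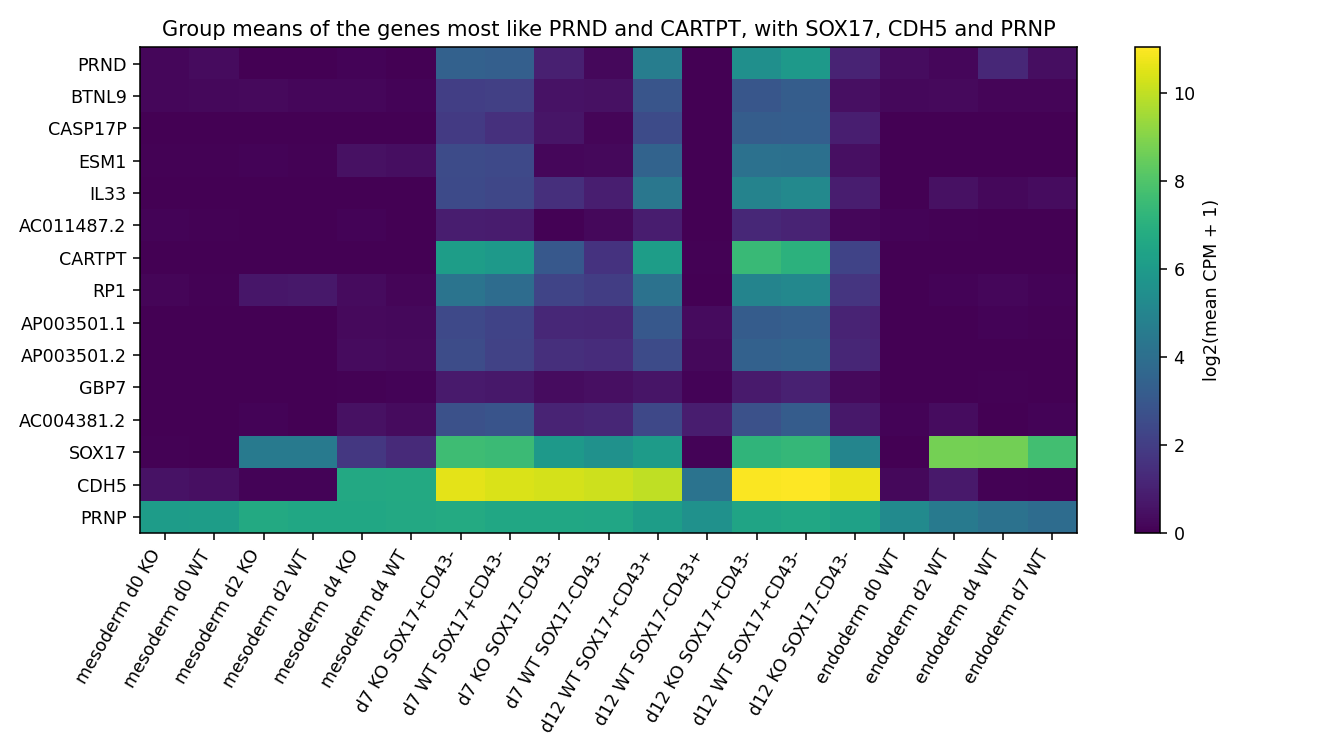
Group means as log2(mean CPM + 1), by colour, of PRND, CARTPT, the 5 genes most like each, and SOX17, CDH5 and PRNP over the 19 groups. SOX17 is highest in endoderm of day 2 and day 4, where CARTPT is at or near 0 and PRND is low.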

How the data were processed

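The authors deposited a table of raw fragment counts per gene and a table of log2 RPKM values, a score per gene and library computed by the authors as log2 of RPKM plus 1. The submitters' processing notes name cutadapt 1.18, featureCounts, R 3.2.2 and GRCh38, without roles. The aligner, the annotation and the strand setting were not found in the labels or headers. Groups follow the sample titles, also for KO cells of day 2 and 4, whose genotype field lacks the deletion. All 65 count columns were mapped by library number, and 58039 of 58302 identifiers were named from GENCODE 29 (263 were not).

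The count test was the quasi-likelihood F test of edgeR 4.0.16 (R 4.3.3) with TMM factors, 1 mean per group and filterByExpr (minimum count 10, minimum total 15). The 28 sorted libraries in groups with replicates shared 1 fit of 22978 genes, and a gene was called where its adjusted p (Benjamini-Hochberg, all genes of the fit) was under 0.05. Endothelium and endoderm of day 7 had a fit of 7 libraries and 21165 genes. Neither gene passed the filter in the 24 unsorted mesoderm or the 12 endoderm libraries. Standard errors are log2 fold changes without sign, divided by the square root of F, and 95% intervals are normal ones. Against groups with 0 counts, folds are bounds against 3 counts over the group, and with 1 to 3 counts ratios carry 95% counting intervals, which cover counting error alone. RPKM is 2 to the power of the deposited log2 value, minus 1. Whether replicate numbers pair libraries was judged by the correlation of deviations from group means, over 0.1 in every pair of 3 or more. It was 0.16 to 0.28 for WT day 12 against day 7 and 0.28 to 0.53 for KO against WT in SOX17+ cells of day 7. Alternatives used limma 3.58.1 and DESeq2 1.42.0, and the test was tried on simulated counts.

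The members, gene lists and comparisons were chosen with earlier results of these data known. The genes named are the members, genes of these lists, gate and genotype markers, the 5 genes most like each member and the genes ranked above a member at day 7. The difference of KO effects between days, the library sizes for bounds and the levels with a library left out were added after the data were seen. Sequences came from RefSeq and loci from GENCODE. Scripts used Python 3.11.15, pandas 2.3.3, scipy 1.17.1 and matplotlib 3.10.9.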

Additional observations from a re-analysis of the deposited data

Results flagged for a closer look

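In unsorted KO mesoderm of day 0, 1 of 4 libraries lay far from the others for PRND, at 0.52 CPM against 0.07, 0 and 0 CPM, with 0.87 of the range of the group between it and the nearest library, beyond Dixon's 95% critical value. The group held 9 counts of PRND in all. Chance alone gives such a mark in about 5% of groups of normal values, a rate that need not hold for counts this low.

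The single KO SOX17-CD43- library of day 12, which entered no comparison, held both transcripts above the limit that 3 counts set, at 0.211 CPM. PRND had 1.127 CPM, from 16 counts with an exact 95% Poisson interval of 0.644 to 1.83 CPM. CARTPT had 3.664 CPM, from 52 counts with an interval of 2.74 to 4.80 CPM. Both intervals cover counting error only. SOX17 stood at 31.1 CPM in this library.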

How the results depend on the processing

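Over 67 results, leaving out 1 library left 352 values as they were, moved 36, reversed 7 and took 4 past the threshold, and the other alternatives left 202, moved 33, took 11 past the threshold and reversed 1. PRND kept its call and direction in day 12 against day 7 and in the CD43 contrast under every alternative that was run. KO against WT in SOX17- cells of day 7 used libraries that also served to choose the genes. There PRND passed without the filter on low counts (2.25, adjusted p = 0.00403) and in DESeq2 (2.30, adjusted p = 0.0177). When a library was left out, its edgeR adjusted p was 0.278 to 0.942. CARTPT there passed with the replicate block (2.20, adjusted p = 0.00821), although these numbers did not pair the libraries (r from -0.06). Run numbers did pair them (r of 0.16 to 0.23), and with the run block neither gene passed. CARTPT between day 12 and day 7 passed in WT without the filter (1.17, adjusted p = 0.0042), with the replicate block (1.17, adjusted p = 0.000502) and with a library run block (1.15, adjusted p = 0.00322), and in KO likewise (1.35, 1.20 and 1.19, adjusted p = 0.000814, 0.000456 and 0.00282), where the numbers did not pair the libraries. In the CD43 contrast it passed with the replicate block (-0.91, adjusted p = 0.0215) and the run block (-1.09, adjusted p = 0.0213), where neither number was judged to pair the libraries. No other call of PRND or CARTPT changed under the replicate block. The cause of these changes was not tested.

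With a library left out, CARTPT ranged from 0.80 to 1.66 (WT) and 1.01 to 1.62 (KO) between days, from -2.32 to -0.41 in the CD43 contrast and from -0.08 to 0.66 in KO against WT SOX17+ cells of day 7, where it turned without WT replicate 2 or KO replicate 4. Its difference of KO effects between days, which did not pass, ranged from -0.29 to 0.54 and was -0.03 by limma on the deposited log2 RPKM. On that scale, where adding 1 shrinks low values, PRND had 1.61 (WT) and 1.44 (KO) between SOX17 fractions, -0.17 for their difference, and 1.55 for endothelium against endoderm.

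The count bounds of PRND ranged with a library left out from 647 to 1095 (SOX17-CD43+ against SOX17+CD43-), 265 to 410.1 (SOX17+CD43+ against SOX17-CD43+, 389 with TMM-scaled sizes), 145 to 209 (day 7 SOX17+ against day 4) and 3.09 to 4.71 (day 7 SOX17- against day 4). The last 2 bounds, 197 and 4.21 with all libraries, set sorted against unsorted WT cells. There day, sorting and the series of library numbers coincide and cannot be told apart. The CARTPT ratio of endothelium to endoderm ranged from 730 to 4047, the lowest being a bound without endoderm replicate 1, which held the only count. With TMM scaling, PRND in WT SOX17+CD43+ cells averaged 22.7 CPM.

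The number of genes called between SOX17 fractions was 367 in WT (651 without the filter, 559 with the replicate block, 616 with the run block, 208 with the groups alone, 166 to 407 with a library left out) and 154 in KO (446, 311, 376 and 612 in that order, 331 by DESeq2, 234 by limma, 46 to 160). KO against WT gave 13 in SOX17+ cells of day 7 (34 without the filter, 22 with the run block, 29 by DESeq2, 2 to 11), 2 in SOX17- cells (24 without the filter, 7 with either block, 13 by DESeq2, 8 by limma, 1 to 2) and 43 at day 12 (96 without the filter, 10 with the groups alone, 77 by DESeq2, 12 by limma, 28 to 52). The CD43 contrast gave 6086, and 3857 to 5727 with a library left out, the lowest without a SOX17+CD43+ library. Of the 5 genes most like each member, 0 and 0 stayed by rank correlation, 3 and 3 without the sorted groups of day 7, and 3 for PRND with a pseudocount of 0.1. Comparisons among unsorted libraries, in which neither gene passed the filter, were not run under the alternatives. Depth limits the PRND comparison in SOX17- cells of day 7, where WT held 12 counts in 4 libraries. The CARTPT ratio of SOX17+CD43+ to SOX17-CD43+ cells ranged from 712 to 2680 with a library left out.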
